A study of Drosophila melanogaster with 18 samples.

Results

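The UDP-glycosyltransferases (UGTs) of *D. melanogaster* were followed in the fat body across the end of larval life. Members were taken as all genes of the count table whose FlyBase symbol, looked up by gene identifier, begins with Ugt followed by a number. This gave 35 of 16438 genes, in 13 subfamilies (the number after Ugt). An average of at least 15 counts over 18 libraries left 34 of the 35 members among the 12460 genes tested. The exception was *Ugt303B1*, with a mean of 13.28 counts.

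The libraries were made from RNA of dissected fat bodies of females of 2 origins, Dutch (NL) and Zambian (ZI). Each population was sampled as early wandering larvae, as late wandering larvae (both of the last instar) and as white prepupae. There were 3 libraries in each of the 6 groups, and no transgene, deletion or treatment is named for any group. Larvae had been raised on food with bromophenol blue and staged by the color of the gut. Each library pooled fat bodies of several isofemale strains, and the libraries of a population pooled the same strains, so the spread between libraries, and every p-value that rests on it, does not measure the variation among strains.

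UGTs join a sugar, taken from an activated UDP-sugar, to small fat-soluble molecules, which makes them more soluble and easier to excrete. In insects the usual donor is UDP-glucose, and the substrates include plant toxins, insecticides, pigments, odorants and hormones. The enzymes are anchored in the membrane of the endoplasmic reticulum. The fat body, which combines roles that vertebrates divide between liver and adipose tissue, is one of the sites of detoxification in the fly, together with the midgut and the Malpighian tubules. For most fly UGTs the substrate is not known.

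Members were spread over 4 chromosome arms, with 11 on 2L, 5 on 2R, 2 on 3L and 17 on 3R. Neighbours less than 100 kb apart formed 6 clusters that together held 23 of the 35 members. The cluster with the most members lay at 3R:11126597-11177910 (Release 6 assembly, start and end from the Ensembl annotation) and held 10, in order *Ugt35C1*, *Ugt302K1*, *Ugt302E1*, *Ugt302C1*, *Ugt35E1*, *Ugt35E2*, *Ugt35B1*, *Ugt35A1*, *Ugt304A1* and *Ugt303A1*. *Ugt36F1*, *Ugt36D1* and *Ugt36E1* were adjacent at 2L:18819344-18829059, and *Ugt37A2* and *Ugt37A3* at 3R:12739642-12743680. All 35 are annotated as protein-coding. The length given in the table was 1513 to 3154 bases. Read pairs that matched more than 1 gene had been discarded by the authors, so members with near-identical stretches may have lost reads.

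The total count per library was 14998610 to 37250385. Levels were normalized counts (CPM), per 1e+06 counts of a library's total multiplied by its TMM factor. These factors ran from 0.742 in an early to 1.282 in a prepupal Dutch library, so CPM are not shares of a library's reads. Summed over 11 fat body genes, which include the larval serum proteins, CPM were 521000 to 585000, 263000 to 385000 and 266000 to 315000 over the early, late and prepupal Dutch groups, and 496000 to 570000, 342000 to 443000 and 313000 to 356000 over the Zambian groups in this order. Lists of defining genes of 9 other tissues summed to at most 648 CPM, and no sum was at 0 in any library. Hemocyte markers (7 genes) summed to 232 to 260, 123 to 173 and 62.2 to 85.3 CPM over the Dutch stages and to 210 to 257, 105 to 133 and 49.1 to 58.0 CPM over the Zambian stages, and all 7 of them fell from early larvae to prepupae in Dutch and 5 in Zambian animals. Of 7 muscle markers 6 fell in Dutch and 7 in Zambian animals, and of 7 salivary gland markers 6 and 5 fell, with median log2 fold changes of -1.45 and -1.85 (all genes, 26.1% and 23.1% lower). Neuron markers (5 genes) summed to 274 to 318, 328 to 377 and 390 to 461 CPM over the Dutch and to 298 to 367, 533 to 560 and 572 to 648 CPM over the Zambian stages, although *elav* fell in both populations while *Syt1* rose in both and *para* in Zambian animals. Markers of the Malpighian tubule (11 genes), a tissue also known for detoxification, summed to 179 to 217 CPM in prepupal and to 91.4 to 117 CPM in larval libraries, with *Irk1* and *NKCC* higher and *Uro* lower in prepupae in both populations and *salt* also lower in Zambian animals. Midgut markers (13 genes) stood apart in 1 early Dutch library (149 CPM) and in 1 late Dutch library (146 CPM), against 17.5 to 22.3 and 18.4 to 20.5 CPM in the others of those groups. The part of these genes in the changes below was not tested. In pooled tissue of this kind, fewer cells of a type and less RNA per cell cannot be told apart.

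Members differed widely in level. Averaged over the 18 libraries, 13 members had at least 3 CPM (3.65 to 234 CPM), and the other 21 tested members had 0.521 to 2.66 CPM. The 13 were *Ugt35A1*, *Ugt35C1*, *Ugt36A1*, *Ugt36D1*, *Ugt36E1*, *Ugt37A2*, *Ugt37A3*, *Ugt37D1*, *Ugt49B1*, *Ugt301D1*, *Ugt302C1*, *Ugt316A1* and *Ugt317A1*. Of these, 12 of 13 were called in at least 1 comparison of stages, against 6 of the other 21 and 63.6% of all genes. That share covers tested genes of every level, and none was computed for all genes of at least 3 CPM. The 12 of 13 can therefore not be read as a trait of these members.

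**Figure D1:**
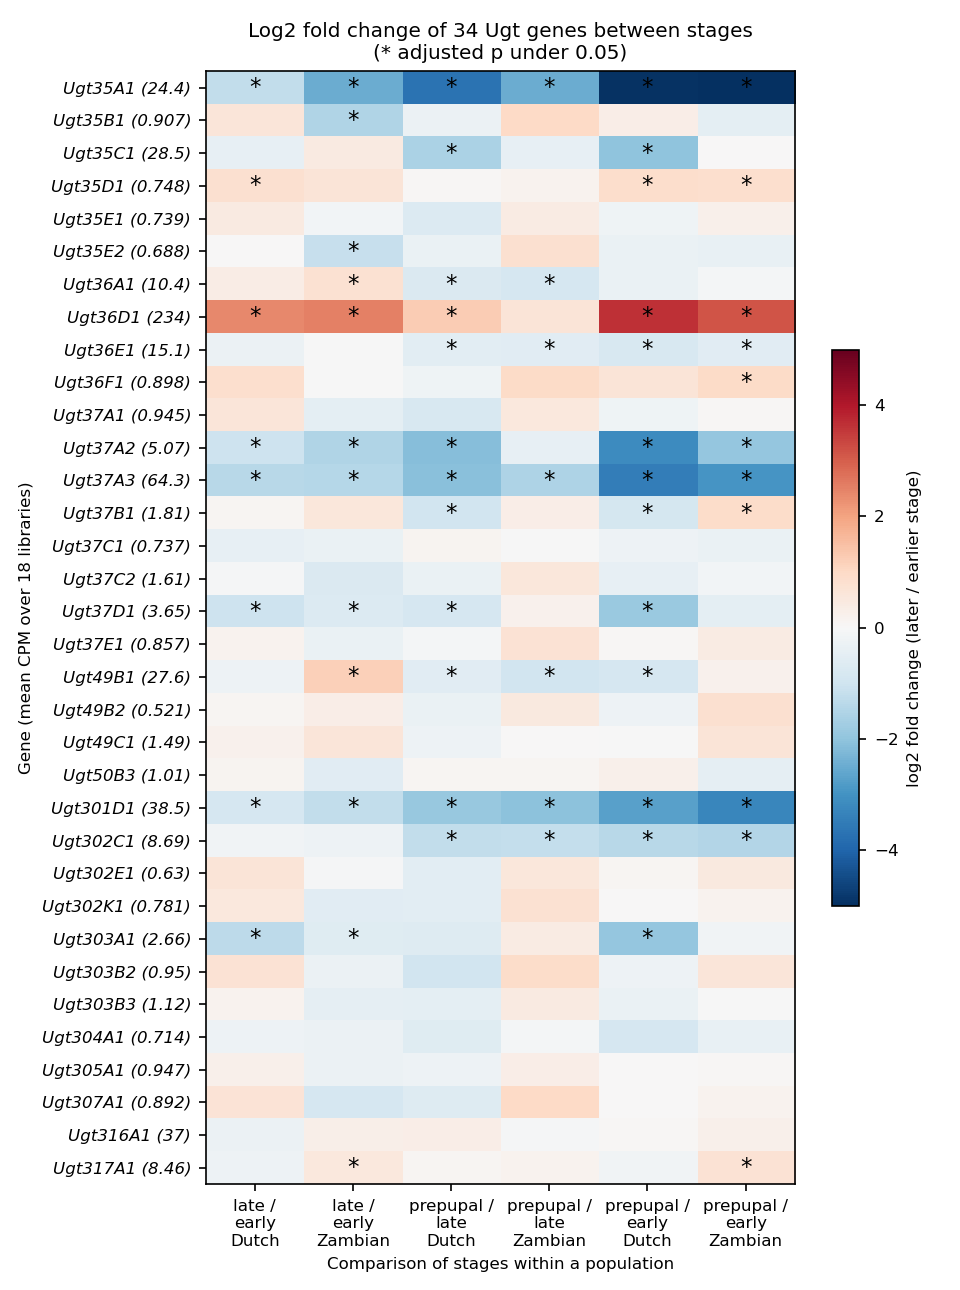
Log2 fold change of the 34 tested members (rows, in order of subfamily, with the mean CPM over 18 libraries in brackets) in the 6 comparisons of stages (columns). Red is higher and blue is lower in the later stage, and a star marks an adjusted p under 0.05. *Ugt36D1* stands out as the red row, and *Ugt35A1*, *Ugt37A2*, *Ugt37A3* and *Ugt301D1* as the darkest blue rows.

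From early larva to prepupa, 1 UGT above 3 CPM rose and 6 fell in both populations. *Ugt36D1* rose 12.4-fold in Dutch animals and 8.81-fold in Zambian animals, whereas *Ugt35A1*, *Ugt37A2*, *Ugt37A3*, *Ugt301D1*, *Ugt302C1* and *Ugt36E1* fell in each. Counted over all tested members, 13 of 34 changed in Dutch animals (2 higher and 11 lower in prepupae), where 45.5% of the 12460 genes tested did (19.4% higher and 26.1% lower). In the Zambian population 11 of 34 changed (5 higher and 6 lower), against 41.2% of all genes (18% higher and 23.1% lower). Of the 13 members above 3 CPM, 10 (76.9%) changed in Dutch and 8 (61.5%) in Zambian animals, and of the 21 others 3 (14.3%) in each. The shares of all genes cover tested genes of every level and are not matched to either class. The median log2 fold change of the 34 members was -0.26 in Dutch animals and 0.03 in Zambian animals, beside 0.09 and 0.03 over all genes, and -1.38 and -0.47 for the 13 above 3 CPM. *Ugt36D1* and *Ugt35D1* were called higher in both populations (all genes, 14%) and the 6 named above lower in both (all genes, 20.7%). *Ugt35D1*, at 0.748 CPM on average, rose by 0.88 ± 0.32 in Dutch and by 0.83 ± 0.30 in Zambian animals on the log2 scale. Its Dutch call was lost with DESeq2, with only the libraries compared, and without the first early, the first prepupal or the third prepupal Dutch library. Over the 6 stage comparisons, 18 of 34 members (52.9%) were called in at least 1, against 63.6% of all genes.

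Split by interval, 8 of 34 members changed between early and late larvae in Dutch animals (2 higher and 6 lower; 41.6% of all genes, 18.4% higher and 23.2% lower) and 12 in Zambian animals (4 higher and 8 lower; 35.6% of all genes, 18.7% higher and 17% lower). Between late larvae and prepupae 12 members changed in Dutch animals (1 higher and 11 lower; 15.1% of all genes, 7.68% higher and 7.45% lower) and 7 in Zambian animals (all lower; 12.3% of all genes, 3.64% higher and 8.69% lower). In both populations, *Ugt36D1* was called higher and *Ugt35A1*, *Ugt37A2*, *Ugt37A3*, *Ugt37D1*, *Ugt301D1* and *Ugt303A1* lower in late than in early larvae (all genes, 9.04% higher and 13.4% lower). The Zambian call of *Ugt303A1* was lost in 16 alternative fits, DESeq2 and both other normalizations among them (adjusted p of 0.0515 to 0.236). Lower in prepupae than in late larvae in both populations were *Ugt35A1*, *Ugt36A1*, *Ugt36E1*, *Ugt37A3*, *Ugt49B1*, *Ugt301D1* and *Ugt302C1* (all genes, 4.74%), and none was higher in both (all genes, 2.17%). The Dutch call of *Ugt49B1* in this interval was lost in 5 alternative fits (adjusted p of 0.0503 to 0.128). Those of *Ugt36E1* and *Ugt302C1* were lost with only the libraries compared (adjusted p = 0.0642 and 0.0566). The median log2 fold change of the 34 members from late larvae to prepupae was -0.53 in Dutch (all genes, -0.09) and 0.28 in Zambian animals (all genes, 0.0). It was -0.84 and -0.58 for the 13 members above 3 CPM, and -0.35 and 0.50 for the 21 others. Without the third early Dutch library the count for early to late in Dutch animals was 12 (all genes, 3441 higher and 2569 lower). Without the second or the third late Dutch library it was 5 (all genes, 1411 and 1552 higher, 2371 and 2414 lower). Without the first early Zambian library the Zambian count from early to late was 7 (all genes, 1941 higher and 1725 lower). With normalization factors from upper quartiles or from well-expressed genes, the Dutch split from early to late was 4 higher and 5 lower. The median of all genes moved by 0.21 and 0.25 on the log2 scale, with 3717 and 3920 of them higher, 2368 and 2171 lower. With the same factors the Zambian split from late larvae to prepupae was 2 higher and 7 lower. There the median of all genes moved by 0.2 and 0.23, with 1034 and 1081 of them higher, 746 and 703 lower.

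*Ugt36D1* (FBgn0032713, 2L:18823548-18826716) was the member with the steepest rise. In the Dutch population it had 26.5, 33.3 and 23.1 CPM in early, 101, 172 and 159 CPM in late and 373, 371 and 287 CPM in prepupal libraries. In the Zambian population it had 35.0, 59.4 and 77.9 CPM in early, 307, 335 and 335 CPM in late and 557, 506 and 454 CPM in prepupal libraries. No library of a stage overlapped with those of the stage before it in either population. From early to late larvae the log2 fold change was 2.38 ± 0.24 (SE, adjusted p = 1.98e-07) in Dutch animals and 2.50 ± 0.24 (adjusted p = 5.88e-08) in Zambian animals. The further change to prepupae was 1.25 ± 0.23 (adjusted p = 0.000569) in Dutch animals. It was 0.64 ± 0.23 in Zambian animals, which did not pass (adjusted p = 0.07).

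The other members of subfamily 36 differed from *Ugt36D1* in course. *Ugt36E1* (FBgn0027070), adjacent on the same strand and described in fly olfaction, averaged 16.0 ± 1.42, 13.1 ± 1.40 and 9.18 ± 0.51 CPM (SD, n = 3) over the Dutch and 19.6 ± 1.09, 19.6 ± 2.25 and 13.1 ± 1.75 CPM over the Zambian stages. Its prepupal level was 1.74-fold (Dutch, adjusted p = 2.33e-05) and 1.5-fold (Zambian, adjusted p = 0.000598) lower than the early one. An exon of *CG17597*, on the opposite strand, overlaps *Ugt36E1*, and strand use in counting is not stated, so how pairs from the shared stretch were treated is not known. *CG17597* had group means of 68.4 to 177 CPM, and it also fell from early larvae to prepupae, with log2 fold changes of -1.37 and -0.85.

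*Ugt36A1* (FBgn0015663, 2L:3619097-3621573) peaked in late larvae. It averaged 8.46 ± 1.01, 11 ± 1.54 and 6.67 ± 0.43 CPM over the Dutch and 10.1 ± 3.05, 16.9 ± 2.29 and 9.36 ± 1.21 CPM over the Zambian stages (SD, n = 3). The rise to late larvae passed in Zambian animals (log2 fold change 0.74 ± 0.17, adjusted p = 0.00163) and not in Dutch animals (0.38 ± 0.18, adjusted p = 0.085), and the difference between these changes did not pass (adjusted p = 0.29). The fall to prepupae passed in both, at -0.73 ± 0.18 and -0.86 ± 0.17. *Ugt36F1*, on the other side of *Ugt36D1*, stayed between 0.314 and 1.92 CPM in every library, and it rose by 0.96 ± 0.34 on the log2 scale to prepupae in Zambian animals (adjusted p = 0.0266). *CG15418*, on the opposite strand of *Ugt36A1*, had group means of 0.319 to 0.676 CPM.

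**Figure D2:**
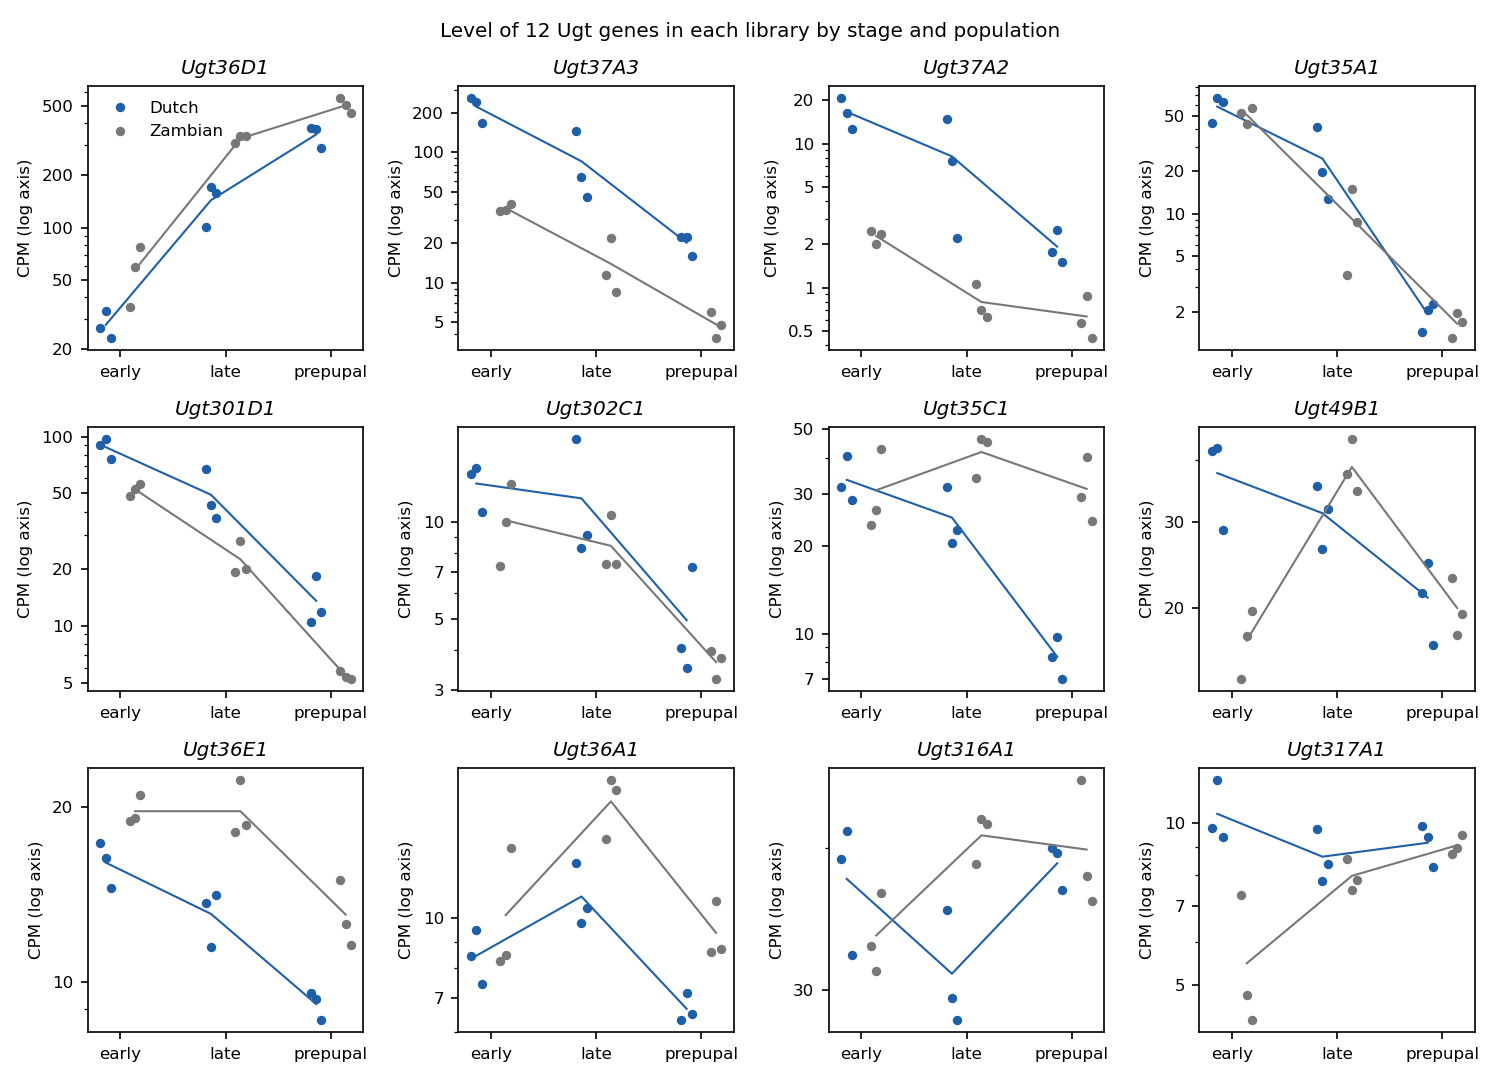
CPM (log axis, different in each panel) of 12 members in each library by stage, with Dutch libraries in blue and Zambian libraries in grey and lines through the group means. *Ugt36D1* rises and *Ugt37A3*, *Ugt37A2*, *Ugt35A1*, *Ugt301D1* and *Ugt302C1* fall in both populations, whereas the lines of *Ugt35C1* and *Ugt49B1* differ in shape between the populations.

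In subfamily 37, the adjacent genes *Ugt37A2* (FBgn0038082) and *Ugt37A3* (FBgn0038083) fell with stage and were far higher in Dutch animals. *Ugt37A3* had 261, 243 and 169 CPM in early, 146, 64.5 and 45.5 CPM in late and 22.4, 22.4 and 15.9 CPM in prepupal Dutch libraries. The Zambian libraries had 35.2, 36.3 and 40.4 CPM, 11.5, 21.8 and 8.49 CPM and 5.90, 3.73 and 4.70 CPM at these stages. The level in prepupae was 11.1-fold lower than in early larvae in Dutch animals (adjusted p = 9.38e-08) and 7.73-fold lower in Zambian animals (adjusted p = 1.24e-06). No Dutch library overlapped with a Zambian library of its own stage, and the lowest early Dutch library lay above every Zambian library.

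*Ugt37A2* had the same order of group means. It had 20.7, 16.4 and 12.7 CPM in early, 14.7, 7.52 and 2.23 CPM in late and 1.76, 2.51 and 1.52 CPM in prepupal Dutch libraries, and 2.48, 2.0 and 2.38 CPM, 1.06, 0.706 and 0.626 CPM and 0.569, 0.884 and 0.446 CPM in Zambian libraries. The late Dutch libraries were spread over a wide range that overlapped with both neighbouring stages. From early larvae to prepupae the fall was 3.15 ± 0.43 on the log2 scale in Dutch animals (adjusted p = 3.53e-06) and 1.92 ± 0.51 in Zambian animals (adjusted p = 0.0042). Its call from early to late larvae in Dutch animals (adjusted p = 0.0358) was lost in 11 alternative fits, DESeq2 and the fits without either the second or the third late Dutch library among them. Without the second late Zambian library, the call of *Ugt37A3* from late larvae to prepupae in Zambian animals was lost (adjusted p = 0.00735 with it).

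Of the other 6 members of subfamily 37, *Ugt37D1* (FBgn0040260) passed from early larvae to prepupae in Dutch animals and not in Zambian animals. It averaged 8.23 ± 0.83, 4.01 ± 1.91 and 2.22 ± 0.24 CPM over the Dutch and 3.16 ± 0.57, 1.97 ± 0.45 and 2.28 ± 0.10 CPM over the Zambian stages (SD, n = 3). The log2 fold change to prepupae was -1.87 ± 0.26 in Dutch animals (adjusted p = 3.74e-06) and -0.47 ± 0.26 in Zambian animals (adjusted p = 0.17), and the difference between the 2 did not pass (adjusted p = 0.064). The call from early to late larvae in Zambian animals (adjusted p = 0.0446) was lost in 18 of the alternative fits. *Ugt37B1* (FBgn0026755) was low throughout, at 0.854 to 3.95 CPM. Its prepupal libraries were lower than the early ones in Dutch animals (log2 fold change -0.86 ± 0.29, adjusted p = 0.0179) and higher in Zambian animals (0.90 ± 0.30, adjusted p = 0.02). The Dutch call was lost without the second early or the second prepupal Dutch library, and the Zambian call without the first prepupal Zambian library. *Ugt37A1*, *Ugt37C1*, *Ugt37C2* and *Ugt37E1* averaged 0.737 to 1.61 CPM and passed in no stage comparison.

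In subfamily 35, *Ugt35A1* (FBgn0026315, 3R:11170817-11172664) showed the largest fall of all members. It had 44.4, 66.8 and 62.8 CPM in early, 41.5, 19.9 and 12.7 CPM in late and 1.44, 2.07 and 2.27 CPM in prepupal Dutch libraries. The Zambian libraries had 52.4, 43.4 and 56.3 CPM, 3.66, 15.1 and 8.76 CPM and 1.29, 1.96 and 1.68 CPM at these stages. The stages did not overlap within either population. The Dutch call from early to late larvae was lost in 4 alternative fits (adjusted p of 0.052 to 0.184). Those without the second early, the second late or the third late Dutch library were among them. Prepupae were 30.3-fold lower than early larvae in Dutch animals (log2 fold change -4.92 ± 0.45, adjusted p = 1.48e-08) and 31.2-fold lower in Zambian animals (-4.96 ± 0.45, adjusted p = 1.65e-08). The raw counts behind these levels were 33 to 79 in prepupal and 1040 to 1813 in early Dutch libraries, and 40 to 64 and 1322 to 1771 in Zambian libraries.

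*Ugt35C1* (FBgn0040256, 3R:11126597-11128328), once named *Ugt86Dd* and linked in *D. melanogaster* to the resistance of larvae to nicotine, fell in Dutch animals, and no change was detectable in Zambian animals. It had 31.7, 40.4 and 28.6 CPM in early, 31.7, 20.4 and 22.7 CPM in late and 8.30, 9.73 and 6.97 CPM in prepupal libraries of Dutch animals. In Zambian ones it had 23.6, 26.5 and 42.7 CPM, 34, 46.3 and 45.1 CPM and 29.4, 40.2 and 24.2 CPM. All 3 prepupal Dutch libraries lay below every other library. The change from early larvae to prepupae was -2.02 ± 0.24 on the log2 scale in Dutch animals (adjusted p = 4.99e-07) and 0.01 ± 0.22 in Zambian animals, where 2 standard errors to either side gave -0.44 to 0.46. *Ugt35A1* and *Ugt35C1*, though members of 1 cluster and 1 subfamily, thus took different courses in Zambian animals. The other 4 members of subfamily 35 had means of 0.688 to 0.907 CPM.

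*Ugt301D1* (FBgn0032684, 2L:18509560-18513512) fell at every step. It had 90.7, 97.0 and 75.8 CPM in early, 67.1, 43.5 and 37.1 CPM in late and 10.4, 18.4 and 11.8 CPM in prepupal Dutch libraries. The Zambian libraries had 48.3, 52.8 and 56.4 CPM, 19.2, 28.1 and 20.0 CPM and 5.75, 5.35 and 5.20 CPM. Neither the stages within a population nor the populations within a stage overlapped. The prepupal level was 6.56-fold lower than the early one in Dutch animals (adjusted p = 3.04e-09) and 9.65-fold lower in Zambian animals (adjusted p = 5.3e-10).

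*Ugt302C1* (FBgn0040259, 3R:11157098-11159744) was called lower after the late stage and not before it, with log2 fold changes from early to late larvae of -0.16 ± 0.28 in Dutch and -0.26 ± 0.28 in Zambian animals. Its group means were 13.2 ± 2.16, 11.8 ± 5.41 and 4.95 ± 2.02 CPM over the Dutch and 10.1 ± 2.90, 8.42 ± 1.78 and 3.67 ± 0.38 CPM over the Zambian stages (SD, n = 3). The log2 fold change from late larvae to prepupae was -1.22 ± 0.29 in Dutch animals (adjusted p = 0.00516) and -1.19 ± 0.30 in Zambian animals (adjusted p = 0.0104). The Zambian call was lost without the second late or the second prepupal Zambian library, and the Dutch call with only the libraries compared. The neighbours *Ugt302E1* and *Ugt302K1* averaged 0.630 and 0.781 CPM.

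*Ugt49B1* (FBgn0027073, 2R:21212880-21214972) differed in course between the populations. It had 41.7, 42.4 and 28.9 CPM in early, 35.4, 26.4 and 31.8 CPM in late and 21.5, 24.7 and 16.8 CPM in prepupal libraries of Dutch animals. In Zambian ones it had 14.3, 17.5 and 19.7 CPM, 37.5, 44.2 and 34.6 CPM and 23.0, 17.6 and 19.4 CPM. The late Zambian libraries lay above all other Zambian libraries, while the early and the late Dutch libraries overlapped. From early to late larvae it rose 2.26-fold in Zambian animals (adjusted p = 1.85e-05), and the Dutch log2 fold change was -0.27 ± 0.17 (adjusted p = 0.2). *CG44245*, which overlaps it on the opposite strand, had group means of 2.46 to 5.66 CPM. *Ugt49B2* and *Ugt49C1* averaged 0.521 and 1.49 CPM and passed in no stage comparison.

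Of the 6 other subfamilies with a single member, 5 passed in no stage comparison. *Ugt316A1* (FBgn0036842, 3L:19059400-19062816) was 1 of these 5. Its change from early larvae to prepupae was 0.04 ± 0.13 on the log2 scale in Dutch animals and 0.25 ± 0.13 in Zambian animals. *Ugt317A1* (FBgn0040091) had 9.77, 12.0 and 9.39 CPM in early Dutch but 7.36, 4.80 and 4.30 CPM in early Zambian libraries, and its Zambian level rose 1.64-fold to prepupae (adjusted p = 0.00131). *Ugt50B3*, *Ugt304A1*, *Ugt305A1* and *Ugt307A1* had means of 0.714 to 1.01 CPM.

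Which UGT made up most of the family's transcripts differed between stages. Levels of different genes were compared as TPM, in which counts are divided by gene length and scaled to the same total in each library. TPM was not scaled with the factors used for CPM. Summed over the 34 members, the family had 347 to 399, 364 to 403 and 378 to 390 TPM in early, late and prepupal Dutch libraries, and 220 to 255, 365 to 393 and 491 to 521 TPM in Zambian libraries. *Ugt36D1* supplied 3.41 to 4.14%, 15.6 to 35.1% and 64.1 to 68.4% of this sum over the Dutch stages. Over the Zambian stages it supplied 9.98 to 17.1%, 52.0 to 56.8% and 73.0 to 75.4%. Without *Ugt36D1* the summed TPM was 334 to 386, 236 to 340 and 120 to 140 over the Dutch and 198 to 212, 157 to 179 and 121 to 140 over the Zambian stages. The group mean of the sum without *Ugt36D1* fell with stage in both populations. The early and the late Dutch libraries overlapped, and no test was run on the sum.

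The order of the members changed accordingly. In early Dutch larvae *Ugt37A3* led with 153 ± 25.8 TPM, ahead of *Ugt301D1* with 51.3 ± 2.45 and *Ugt35A1* with 37.4 ± 8.11 TPM (SD, n = 3), with no overlap between neighbours in this order. In early Zambian larvae *Ugt35A1* (37.8 ± 3.76 TPM), *Ugt301D1* (35.7 ± 1.49), *Ugt36D1* (34.1 ± 11.1) and *Ugt37A3* (29.7 ± 0.39) followed each other with overlapping libraries. In prepupae *Ugt36D1* led in both, with 254 ± 5.55 TPM in Dutch animals and 371 ± 9.39 TPM in Zambian animals. Next came *Ugt316A1* (20.3 ± 1.86 TPM), *Ugt37A3* (19.8 ± 1.26) and *Ugt49B1* (19.6 ± 1.49), with overlapping libraries, in Dutch animals and *Ugt35C1* in Zambian animals (30.4 ± 8.25 TPM).

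**Figure D3:**
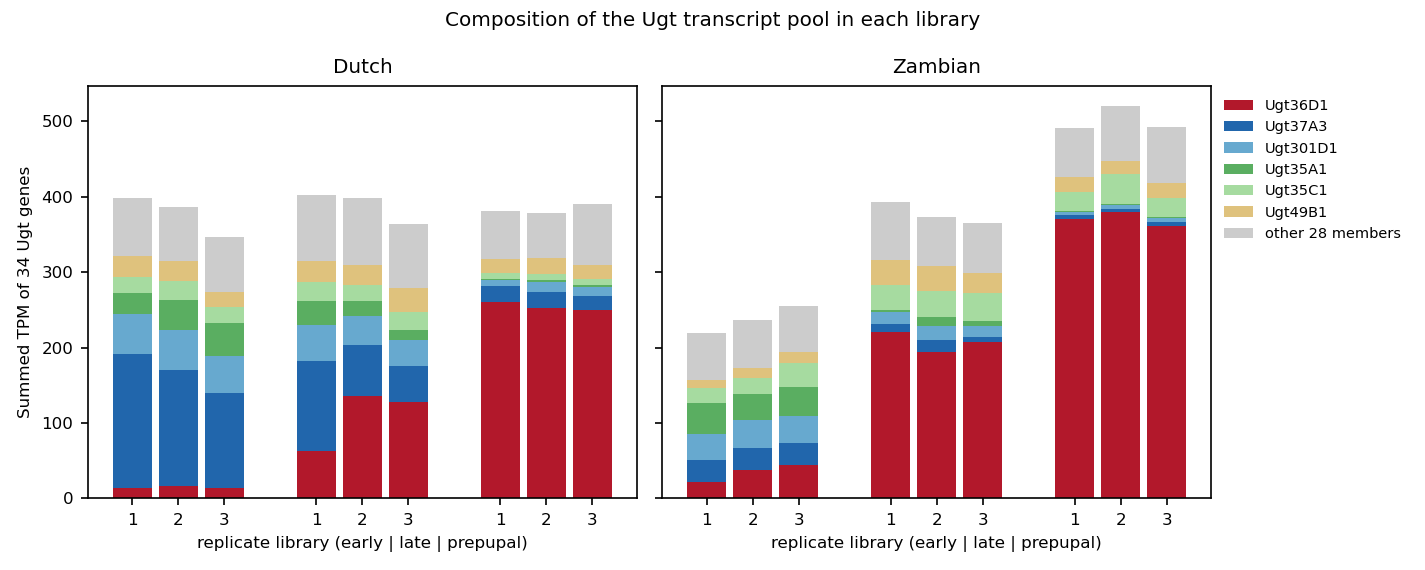
Summed TPM of 34 members in each library (bars, 3 replicates for early, late and prepupal in turn), split by color into 6 named members and the other 28. The red part, *Ugt36D1*, grows to 64.1 to 68.4% of the sum in prepupal Dutch and to 73.0 to 75.4% in prepupal Zambian libraries, and the dark blue part, *Ugt37A3*, makes up 36.5 to 44.6% in early Dutch libraries.

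The 3 late Dutch libraries were not alike. For each population, the members with a mean of at least 3 CPM that were called between early larvae and prepupae were used to place each late library between the early mean (0%) and the prepupal mean (100%) on the log2 scale. For 10 members in Dutch animals, late replicates 1, 2 and 3 lay at 19.0%, 43.4% and 58.9%. All other called genes (5657) put the same libraries at 48.2%, 68.5% and 75.0%, so replicate 1 was nearest to the early stage by both. For 8 members in Zambian animals the late libraries lay at 65.5%, 42.0% and 59.7%, and 5121 other genes put them at 73.9%, 64.7% and 75.8%.

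Between the populations, more UGTs were higher in the Dutch than in the Zambian fat body in early larvae, and in late larvae this held for the 21 members under 3 CPM and not for the 13 above. In early larvae 11 of 34 members differed (9 higher and 2 lower in the Dutch), against 7.53% of all genes (4.53% higher and 3.0% lower). In late larvae 18 differed (13 higher and 5 lower), against 27.8% of all genes (13.7% higher and 14.1% lower). The late split was 5 higher and 5 lower (median log2 difference 0.12) for the 13 members above 3 CPM, and 8 higher and 0 lower (median 0.99) for the 21 others. Of 110 tested chemosensory receptor genes, which the fat body is not known to use, 42 were higher and 1 lower in late Dutch larvae (median 0.89). With their level as a covariate, 5 members were higher and 0 lower in late Dutch larvae. Calls were lost over all genes as well, with 586 higher and 283 lower, against 1711 and 1752 without the covariate. In prepupae 4 of the 34 members differed (2 higher and 2 lower), against 4.75% of all genes (2.66% higher and 2.09% lower). The median log2 difference of the members was 0.20, 0.89 and -0.01 at the 3 stages, beside 0.03, 0.04 and 0.0 over all genes. In all, 23 of 34 members differed at 1 or more stages, against 32.2% of all genes. With factors from well-expressed genes, which moved the median of all genes by 0.28 on the log2 scale, the late split was 16 higher and 2 lower. Over all genes, 2914 were then higher and 627 lower. With upper quartiles the late split was 14 higher and 3 lower, and over all genes 2441 were higher and 885 lower. Without the third late Zambian library the late count was 10, and over all genes 818 were higher and 1007 lower.

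*Ugt37A3* and *Ugt301D1* were higher in Dutch animals at all 3 stages. *Ugt37A3* was 6.02-fold (adjusted p = 3.5e-05), 6.14-fold (4.1e-05) and 4.19-fold (0.000998) higher in early, late and prepupal libraries, and *Ugt301D1* 1.67-fold, 2.20-fold and 2.46-fold. The early call of *Ugt301D1* (adjusted p = 0.0284) was lost without the first or the second library of either population. *Ugt37A2* was 7.24-fold higher in early and 10.1-fold higher in late Dutch libraries. Without the first late Dutch library the late log2 difference was 2.68, against 3.34 with it. In early larvae *Ugt37D1* (2.59-fold), *Ugt49B1* (2.20-fold), *Ugt303A1* (2.07-fold) and *Ugt317A1* (1.88-fold) were also higher in the Dutch. *Ugt36D1* went the other way and was 2.08-fold lower in early (adjusted p = 0.00506) and 2.26-fold lower in late Dutch than Zambian libraries (adjusted p = 0.00122), with no test passed in prepupae (log2 difference -0.56 ± 0.23, adjusted p = 0.22). Without the third early Zambian library the early difference had an adjusted p of 0.0549. *Ugt50B3*, at 0.539 to 0.693 CPM in early Dutch and 1.09 to 2.38 CPM in early Zambian libraries, was likewise lower in the Dutch, and the call was lost without either of 2 early Dutch libraries or the third early Zambian one.

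In prepupae *Ugt35C1* was 3.77-fold lower in Dutch animals (adjusted p = 2.76e-05), and *Ugt36E1* was 1.43-fold lower (adjusted p = 0.0196). The call of *Ugt36E1* was lost when any of the prepupal Dutch libraries or the first prepupal Zambian one was left out. In late larvae *Ugt35C1*, *Ugt36A1*, *Ugt36D1*, *Ugt36E1* and *Ugt316A1* were lower in the Dutch, by 1.32-fold to 2.26-fold. Of these, the calls of *Ugt35C1*, *Ugt36A1* and *Ugt316A1* were lost with factors from well-expressed genes and without the second or the third late Zambian library. With the chemosensory covariate the late calls of all 5 were lost, with an adjusted p of 0.115 for *Ugt36D1* and 0.275 for *Ugt36E1*. The covariate was -0.36 to -0.06 (log2 CPM) in late Dutch and -1.184 to -0.611 in late Zambian libraries. Since these ranges do not overlap, this fit cannot tell the covariate apart from the population.

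**Figure D4:**
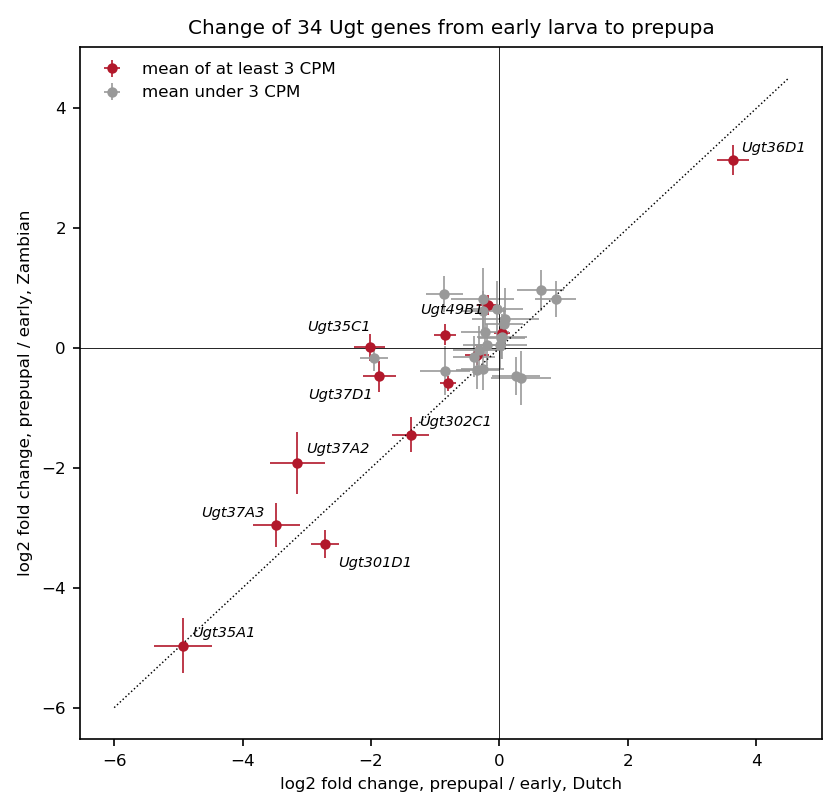
Log2 fold change from early larvae to prepupae in Dutch animals (x axis) against the Zambian population (y axis) for 34 members, with standard errors as bars. Members with a mean of at least 3 CPM are red, the others grey, and the dotted line marks equal change. *Ugt36D1* lies at the upper right and *Ugt35A1* at the lower left near the line, while *Ugt35C1* (-2.02 and 0.01) lies above it.

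Whether a stage change differed between the populations was tested as the difference of the 2 log2 fold changes (Dutch minus Zambian). From early to late larvae 2 members differed, *Ugt49B1* and *Ugt317A1*, against 7.87% of all genes. From early larvae to prepupae 4 differed, *Ugt35C1*, *Ugt37B1*, *Ugt49B1* and *Ugt303A1*, against 1.48% of all genes. Each had a more negative change in Dutch animals (all genes, 0.795%). From late larvae to prepupae 0 of 34 passed the edgeR test (0.0% of all genes), although 12 had an unadjusted p under 0.05, and DESeq2 called 1. The first of these counts was 6 without the third early Dutch, 7 without the first late Dutch, 4 without the third early Zambian and 6 without the first late Zambian library, and 1 without any of 10 others. Counts over all genes moved too, from 434 higher and 546 lower to 1092 and 1597 without the third early Dutch library. Without the second early Dutch library they were 64 and 135. The count from early larvae to prepupae was 2 without the second early Dutch, the first prepupal Dutch or the first prepupal Zambian library. Over all genes, 85 higher and 99 lower became 53 and 74 without the second early Dutch library. For *Ugt35C1* the difference was -2.03 ± 0.33 (adjusted p = 0.00183), for *Ugt303A1* -1.78 ± 0.31 (adjusted p = 0.00386). *Ugt303A1* had 4.52, 6.38 and 5.68 CPM in early and 1.20, 1.13 and 1.87 CPM in prepupal Dutch libraries, and 2.63, 2.76 and 2.63 CPM and 2.10, 2.16 and 2.83 CPM in Zambian libraries. For *Ugt36D1* the difference was 0.50 ± 0.32 (2 standard errors to either side, -0.15 to 1.14) and for *Ugt35A1* 0.04 ± 0.60 (-1.17 to 1.25).

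The 21 tested members with a mean under 3 CPM were set beside chemosensory receptor genes. Without division by length, their median in a library was 0.557 to 1.18 CPM, and that of 179 chemosensory receptor genes was 0.372 to 0.891 CPM. The 8 of the 21 called higher in late Dutch larvae (all genes, 13.7%) were *Ugt35B1*, *Ugt35E2*, *Ugt37A1*, *Ugt37B1*, *Ugt37C2*, *Ugt302K1*, *Ugt303B2* and *Ugt307A1*. Summed over the 179, these genes had 195 to 208 CPM in late Dutch and 100 to 137 CPM in late Zambian libraries, and the 21 members 27.1 to 27.8 and 12.9 to 18.3 CPM. The covariate was the median level of these genes in a library, and their part in the difference was not tested further. In prepupae the 4 members that differed were all above 3 CPM. Between stages, calls among the 21 numbered 2 and 3 between early and late larvae (all genes, 41.6% and 35.6%), 1 and 0 between late larvae and prepupae (15.1% and 12.3%) and 3 and 3 between early larvae and prepupae (45.5% and 41.2%) in Dutch and in Zambian animals.

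**Figure D5:**
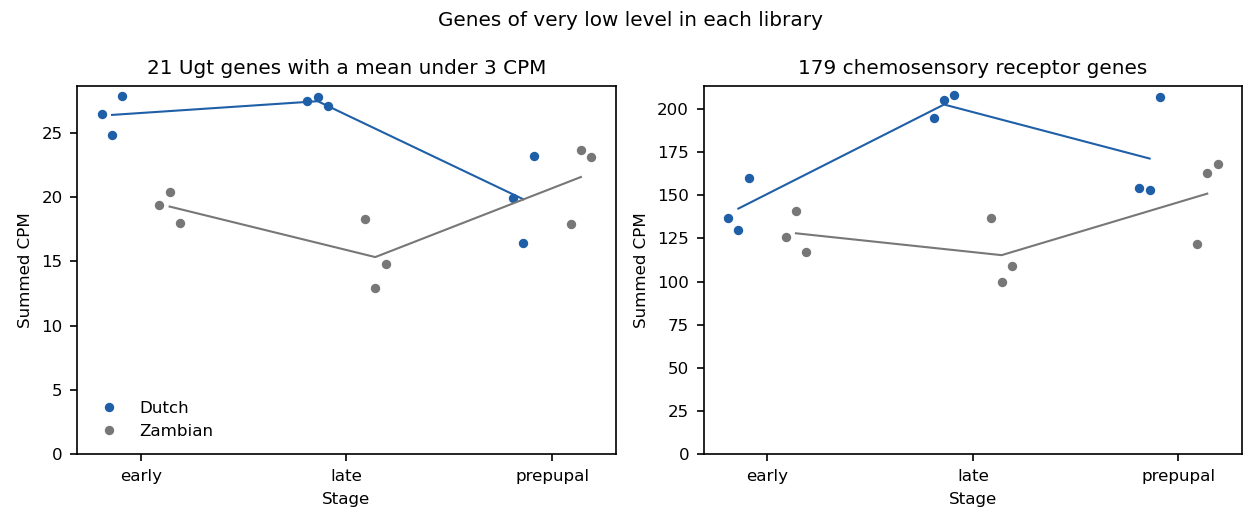
Summed CPM in each library of the 21 tested members with a mean under 3 CPM (left) and of 179 chemosensory receptor genes (right), by stage, with Dutch libraries in blue, Zambian libraries in grey and lines through the means. In late larvae the Dutch libraries lie above the Zambian ones in both panels, at 27.1 to 27.8 against 12.9 to 18.3 CPM and at 195 to 208 against 100 to 137 CPM.

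The genes that supply the UDP-sugars were more often lower than higher in prepupae. Of 14 tested, 3 rose and 8 fell in Dutch animals and 3 rose and 7 fell in Zambian animals from early larvae to prepupae, with median log2 fold changes of -0.63 and -0.56 (all genes, 0.09 and 0.03). Of all genes, 19.4% rose and 26.1% fell in Dutch and 18% rose and 23.1% fell in Zambian animals. *sgl*, which encodes the UDP-glucose dehydrogenase that makes UDP-glucuronic acid, rose by 0.58 ± 0.18 (adjusted p = 0.0106) and 0.61 ± 0.18 (adjusted p = 0.00848) on the log2 scale. *UGP*, which encodes the enzyme that makes UDP-glucose, fell in Dutch animals (-0.48 ± 0.14, adjusted p = 0.0071) and did not pass in Zambian animals (-0.24 ± 0.14, adjusted p = 0.188). *Galk* and *Galt*, which encode galactokinase and a uridylyltransferase of galactose use, fell by 2.54 ± 0.21 and 2.62 ± 0.20 in Dutch animals and by 2.31 ± 0.21 and 2.11 ± 0.20 in Zambian animals. *Efr*, which encodes a transporter of nucleotide sugars, fell by 2.62 ± 0.17 and 2.35 ± 0.17.

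Among 16 genes for ABC transporters of the types that export conjugates, 4 rose and 3 fell in Dutch animals and 4 rose and 2 fell in Zambian animals from early larvae to prepupae, with medians of -0.07 and 0.01. The share called was near that of all genes in Dutch animals (45.5%) and not above it in Zambian animals (41.2%). *Mdr49*, a P-glycoprotein, had 67.1 ± 3.20, 191 ± 17.1 and 356 ± 15.2 CPM over the Dutch and 70.7 ± 11.9, 275 ± 25.2 and 372 ± 37 CPM over the Zambian stages (SD, n = 3). Its means thus had the same order of stages as those of *Ugt36D1*, and the share of all genes with this order was not computed. *MRP*, *CG7627* and *CG9270* also rose from early larvae to prepupae in both populations (all genes, 14%). *Mrp4* fell by 1.17 ± 0.13 and 0.95 ± 0.13 and *CG31793* by 1.29 ± 0.14 and 0.72 ± 0.14 on the log2 scale (all genes, 20.7% lower in both). Of 11 regulators of detoxification genes, 1 rose and 2 fell in Dutch and 2 rose and 2 fell in Zambian animals. Those that rose were *ss* (Dutch, 0.74 ± 0.29), *Keap1* (Zambian, 0.48 ± 0.13) and *maf-S* (Zambian, 0.62 ± 0.14). The difference between the populations in this change did not pass for these (adjusted p = 0.628, 0.0638 and 0.662). In the change from early to late larvae the difference was called for *ss* (higher in Dutch) and *Keap1* (lower in Dutch). In level, *Keap1* was called lower in late and prepupal Dutch than Zambian animals, and *maf-S* in late ones. *Hr96*, a nuclear receptor that responds to xenobiotics, fell by 0.52 ± 0.12 in Dutch animals and by 0.66 ± 0.12 in Zambian animals, and the ecdysone receptor gene *EcR* by 1.93 ± 0.18 and 2.04 ± 0.18. Neither of 2 beta-glucuronidase genes, whose products remove glucuronic acid again, passed in this comparison.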

How the data were processed

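The authors used NextGenMap to map paired reads, from RNA without ribosomal RNA, against FlyBase transcripts. They discarded ambiguous pairs and deposited raw counts per gene, without normalization, for 18 libraries. Strand use in counting is not stated. Names came from the Ensembl annotation (16342 genes by identifier, 76 by CG number, and 20 kept their number), and the chromosome of each member matched between table and annotation.

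A gene was tested if it averaged 15 counts or more, by edgeR 4.0.16 (R 4.3.3) and its quasi-likelihood F-test, with TMM normalization and 1 factor of 6 groups over all 18 libraries. Genes with a Benjamini-Hochberg adjusted p under 0.05 over all genes tested were called. Standard errors are the size of the log2 fold change divided by the root of F. CPM were TMM-normalized (prior count 2 on the log2 scale), and TPM used the length in the table. The fit was tested on simulated counts. Alternatives were DESeq2 1.42.0, 2 other normalizations, 2 other filters, a replicate block, a covariate, only the libraries compared, and each library left out.

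Described in full were members with a mean of at least 1 CPM called in any comparison of stages or populations. The members and lists were chosen with earlier results of these data known, and the bound of 3 CPM after seeing the levels. Tables and figures used Python 3.11.15 with numpy 2.4.6, pandas 2.3.3 and matplotlib 3.10.9.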

Additional observations from a re-analysis of the deposited data

Results flagged for a closer look

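Altogether 6 changes between stages differed between the populations in a test of the difference itself (Dutch minus Zambian log2 fold change, edgeR). From early larvae to prepupae the difference was -2.034 for *Ugt35C1*, -1.782 for *Ugt303A1*, -1.764 for *Ugt37B1* and -1.071 for *Ugt49B1*. From early to late larvae it was -1.447 for *Ugt49B1* and -0.796 for *Ugt317A1*. The calls of *Ugt35C1*, *Ugt303A1* and of *Ugt49B1* from early to late larvae held under every alternative fit. That of *Ugt317A1* was lost in 15 and that of *Ugt37B1* in 11 of the alternative fits, and that of *Ugt49B1* from early larvae to prepupae in 7.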

How the results depend on the processing

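Of 57 called stage changes of the described members, 40 kept their call in every alternative fit, as did 14 of 27 differences between populations and 3 of 6 differences in change, and none reversed its direction. With the chemosensory covariate, the number of members called was 4 between early and late larvae in the Dutch population and 5 between the populations in late larvae. Over all genes, 1818 were then higher and 2174 lower in the first comparison (2290 and 2890 without the covariate). In the second, 586 were higher and 283 lower (1711 and 1752 without it). The covariate did not overlap between the groups compared in either case, so these fits cannot tell it apart from stage or population. With only the libraries compared in the fit, the number of members called was 7 from late larvae to prepupae in the Dutch population. Between the populations in prepupae it was 7 as well. Over all genes, 1077 were then higher and 565 lower in the first comparison (957 and 928 with all libraries). In the second, 528 were higher and 489 lower (332 and 260 with all libraries). The difference in change from early to late larvae gave 1 member with upper-quartile normalization and with factors from well-expressed genes. It also gave 1 with the covariate and with only the libraries compared. Over all genes, these fits gave 416, 491, 48 and 178 higher and 147, 93, 54 and 249 lower, in this order. Without these changes 434 were higher and 546 lower. With DESeq2 this difference gave 5 members, and that from late larvae to prepupae gave 1. The cause was not tested. With 1 library left out at a time, the number called ranged from 5 to 12 (early to late, Dutch), 7 to 13 (early to late, Zambian), 10 to 19 (populations, late), 1 to 7 (difference in change, early to late) and 2 to 6 (difference in change, early larvae to prepupae). The counts over all genes moved between these fits as well.

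Replicate numbers did not pair the libraries: deviations from the group means correlated at -0.39 to 0.43 (median -0.01) for 45 same-numbered pairs and at -0.50 to 0.46 (median -0.01) for 90 other pairs. With the replicate number as a block, 13 Dutch and 11 Zambian changes of members from early larvae to prepupae were called. Of the described members, 0 stage calls, 1 difference between populations (*Ugt49C1* in early larvae) and 1 difference in change (*Ugt37B1*) were lost. The call of *Ugt35D1* from early to late larvae in Dutch animals was also lost.

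Depth limits the members with a mean under 3 CPM most, since a level of 1 CPM rests on few reads. Levels between genes depend on the length in the table.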
